A study of Mus musculus with 8 samples.

Results

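Open chromatin was compared between 2 points of a PU.1 time course in the mouse acute myeloid leukaemia line AML246: 8 days on doxycycline (Dox), and 4 days after the drug was taken away from cells that had received it for 12 days. The assay was ATAC-seq, in which a transposase cuts and tags accessible DNA, and each library was deposited as a list of peak summits. Per the labels, Dox at 0.1 µg/mL restored PU.1 and its withdrawal was the knockdown, so both libraries came from cells that had been exposed to the drug. Both were prepared from total viable cells grown in IMDM with 10% FCS and IL-3. The other 6 libraries of the series, used here only to read the state of the same regions elsewhere, came from untreated total cells (day 0), from total cells after 4 and 12 days of Dox, from a sort of CD11b-high cells after 12 days of Dox, and from total cells 8 and 12 days after withdrawal. Every group held 1 library of 1 cell line, so no spread between replicates exists, no test was run, and each value describes these libraries. The labels do not say how Dox controls PU.1 in this line.

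PU.1, encoded by Spi1, is an ETS-family transcription factor that binds purine-rich DNA around a GGAA core. It is needed for macrophage and B cell formation, it opens chromatin together with partners of the C/EBP, RUNX, IRF and AP-1 families, and its reduction is a known route to myeloid leukaemia. GATA factors oppose it in red cell precursors. A summit list records where chromatin was called open, not which factor was bound there.

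The 2 lists were the longest of the series, with 47060 summits at day 8 and 51175 at 4 days off, against 31957 to 41526 in the other 6. To set lists of like length side by side, the 47000 summits with the highest score were taken from each. The score is a −log10 p-value or q-value made by the authors, and it was used only to rank or filter summits within a list. The last day 8 summit inside this limit scored 2.02 and the first outside 2.01, with 60 left out. At 4 days off both scored 4.26, with 4175 left out. Each summit on chromosomes 1 to 19, X and Y was widened by 150 bp on both sides, and intervals that overlapped became 1 region. Regions holding a library's summit are called open in it. A region without a summit was not called, which does not show that it was closed, and in a bulk library fewer open cells and less opening per cell cannot be told apart. No depth of the libraries is given in the sources used here, so its part in a difference was not tested.

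This gave 56960 regions, of 68800 found with all 8 lists. Both libraries opened 36047 of them, or 63.3% (95% exact Clopper-Pearson interval 62.9 to 63.7). Day 8 alone opened 10380 (18.2%) and 4 days off alone opened 10533 (18.5%). The shared regions were 77.6% of those open at day 8 and 77.4% of those open at 4 days off. With all summits there were 59824 regions, of which 37222 (62.2%) were shared, 9247 (15.5%) were open at day 8 alone and 13355 (22.3%) at 4 days off alone. The extra 4-days-off-only regions came with the longer list. Intervals here and below cover counting error only, and regions that lie close together are not independent.

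The promoters that carried the clearest difference in letters between the classes are shown first. Most library-only regions lay elsewhere, since 13.6% of each class had a summit within 1 kb of an annotated start. Letters outside promoter windows were not searched. Windows of 300 bases, from 250 before to 50 after an annotated start, were taken from RefSeq (GRCm38.p6) for 27025 genes. Day 8-only summits lay in the windows of the paired immunoglobulin-like receptor Pirb and its relatives Lilra6 and Gm15448, of Tlr9, the endosomal receptor for CpG DNA, and of Bcl2a1d, a BCL2-family survival gene. The stretches below run 5′ to 3′ along each gene's strand, and capitals mark the 8 letters GAGGAAGT, or their reverse complement, letters of a typical PU.1 site. They lie at chr7:3720463-3720542 (Pirb, minus strand), chr7:3915612-3915691 (Lilra6, minus), chr7:3825778-3825857 (Gm15448, minus), chr9:106222498-106222617 (Tlr9, plus) and chr9:88731881-88732000 (Bcl2a1d, minus).
Pirb: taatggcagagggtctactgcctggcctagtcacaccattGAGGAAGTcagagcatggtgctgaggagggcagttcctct
Lilra6: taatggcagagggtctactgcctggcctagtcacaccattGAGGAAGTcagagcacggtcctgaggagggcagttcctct
Gm15448: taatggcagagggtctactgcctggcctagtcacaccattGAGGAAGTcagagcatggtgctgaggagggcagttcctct
Tlr9: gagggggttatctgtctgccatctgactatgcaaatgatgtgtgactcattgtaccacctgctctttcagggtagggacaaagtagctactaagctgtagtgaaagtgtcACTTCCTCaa
Bcl2a1d: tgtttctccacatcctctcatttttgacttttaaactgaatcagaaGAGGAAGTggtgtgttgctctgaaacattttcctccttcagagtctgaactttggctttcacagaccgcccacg

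The SP and KLF letters were more frequent in the promoters of the other class. Examples with a summit called only at 4 days off are Phldb2, which encodes a microtubule-anchoring protein of the cell cortex (chr16:45844379-45844478, minus strand), and Rcor2, a corepressor of the CoREST family (chr19:7267274-7267393, plus). Capitals mark CCGCCC or its reverse complement, the core of SP and KLF sites in CpG-rich promoters. These letters are not particular to that class: the stretch printed for Bcl2a1d holds them as well, in lower case near its end.
Phldb2: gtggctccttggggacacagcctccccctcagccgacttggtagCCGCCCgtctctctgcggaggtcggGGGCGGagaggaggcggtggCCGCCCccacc
Rcor2: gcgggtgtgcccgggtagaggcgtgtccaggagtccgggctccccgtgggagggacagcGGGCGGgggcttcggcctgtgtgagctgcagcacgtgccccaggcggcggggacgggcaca

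Regions open only at day 8 were more often open in the other libraries on Dox than in those without it, and regions open only at 4 days off the reverse. This was read in the 6 lists that took no part in making the classes. Among all 56960 regions 54.8% were open at day 0, 54.2% at day 4, 54.9% at day 12, 56.3% in CD11b-high cells, 63% at 8 days off and 49.3% at 12 days off. Of the day 8-only regions 16.2% (15.5 to 17.0) were open at day 0, against 26.5% (25.7 to 27.4) of the 4-days-off-only regions. At day 12 on Dox the order turned: 31.9% (31.0 to 32.8) of day 8-only and 12.6% (12.0 to 13.3) of 4-days-off-only regions were open. CD11b-high cells gave 34.2% and 13.7%, and day 4 gave 25.9% and 15.2%. At 8 days off the shares were 18.7% and 39.6% (38.7 to 40.6), and at 12 days off 12.3% and 19.9%. In each of the 6 lists the intervals of the classes did not overlap. Shared regions were open far more often everywhere, between 68.5% at 12 days off and 82.7% at 8 days off.

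**Figure D1:**
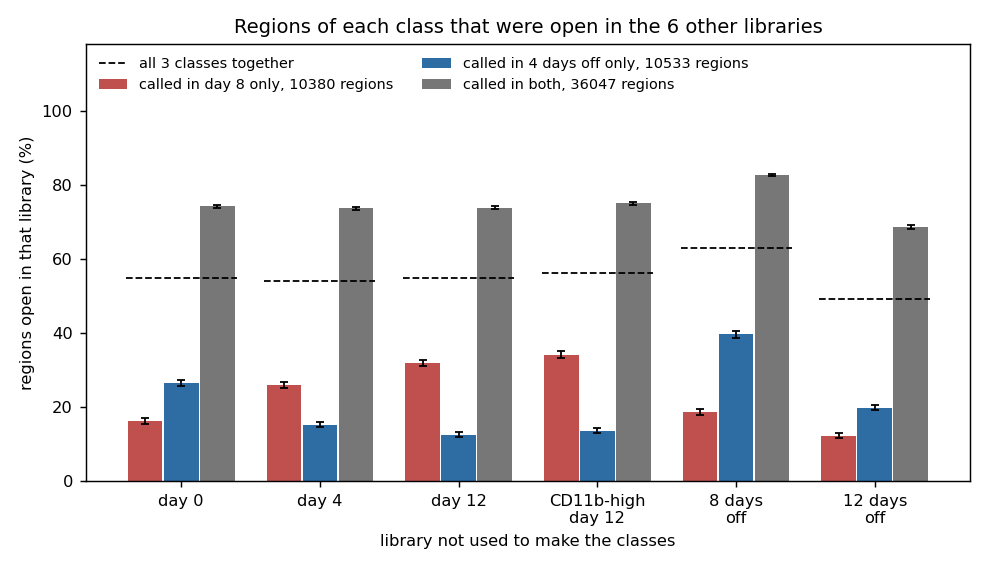
Bars give the percent of regions of each class that held a summit of the library on the x axis, with exact 95% intervals of counting error, and dashed lines give all regions together. Day 8-only regions were open in 31.9% at day 12 and 16.2% at day 0, and 4-days-off-only regions in 12.6% and 26.5%.

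Most library-only regions had weak support. The median score of day 8-only regions was 6.38 in the day 8 list, against 14.9 for shared regions, and that of 4-days-off-only regions was 7.23 against 18.3. Scores of at least 20 were reached by 5.20% of day 8-only and 4.47% of 4-days-off-only regions, and by 37.8% and 46.1% of shared regions in the same lists. Many scores were tied: 764 day 8-only regions (7.36%) carried the score 5.37 and 966 4-days-off-only regions (9.17%) the score 5.21. No other library called 3694 (35.6%) of the day 8-only and 4093 (38.9%) of the 4-days-off-only regions, against 1278 (3.55%) of the shared. All 6 other libraries called 16299 (45.2%) of the shared regions. Score and class come from the same lists, so these values describe the classes and were not tested.

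The summits of shared regions lay close together, at a median of 20 bp from each other, and 74.8% were within 50 bp. The ranks of their scores went together, with a Spearman coefficient of 0.806 across 36047 regions, which share their libraries and are no replicates. At 31000 summits from each list, the length that allowed all 28 pairs of libraries to be set side by side, 64.0% of the regions of this pair were shared, the 9th highest value. Day 8 shared 67.2% with day 12 and 67.2% with CD11b-high cells. The highest pair was 4 and 8 days off with 67.3%, and the lowest was day 0 and day 12 with 53.6%.

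A library-only region could also lie beside a summit of the other library that was merely outside the 300 bp merging distance or below the rank limit. Of the day 8-only regions 3586 had a 4-days-off summit of any rank within 1 kb, and 2112 of the 4-days-off-only regions had a day 8 summit that close. An example is Kit, the stem cell factor receptor, where a 4-days-off-only region inside the gene scored 32.4, 26.1 at day 12, 20.5 at 12 days off and 17.2 in CD11b-high cells. Beside it, 35 bp from the gene, a region open in all 8 libraries scored 18.4 to 49.3. Regions without such a neighbour are called isolated below, and numbered 6794 for day 8 and 8421 for 4 days off. The rule removed more day 8-only regions. The whole 4-days-off list, in which their neighbours were sought, is the longer one. With neighbours sought in the top lists alone, 7182 day 8-only and 7818 4-days-off-only regions at genes were isolated, against 6182 and 7803.

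Among isolated regions the 4-days-off-only share minus the day 8-only share was wider than over all library-only regions at day 0 (14.1 points against 10.3), at 8 days off (26.9 against 20.9) and at 12 days off (11.7 against 7.57). It was not wider at day 4 (-9.57 against -10.7) or day 12 (-19.05 against -19.31), and hardly moved in CD11b-high cells (-20.8 against -20.5). Within this isolated subset the classes lay farther apart at higher ranks. Over all library-only regions this failed in the first 10000 ranks. There 51.2% of 289 day 8-only and 40.8% of 223 4-days-off-only regions were open at day 0. The shares were 49.8% and 50.7% at 8 days off, and 48.8% and 50.2% at 12 days off. At day 4, day 12 and in CD11b-high cells the day 8-only share stayed higher, with 69.9% against 51.1% at day 12. Of 398 isolated day 8-only regions in the second 10000 ranks of their list, 85.2% (81.3 to 88.5) were open at day 12, 87.2% in CD11b-high cells and 60.8% at day 4. Only 7.04% (4.73 to 10.0) of them were open at day 0, 10.6% at 8 days off and 7.79% at 12 days off. Of 201 isolated 4-days-off-only regions at these ranks, 91.0% (86.2 to 94.6) were open at 8 days off, 63.2% at day 0 and 59.2% at 12 days off, against 29.9% at day 12, 22.4% in CD11b-high cells and 20.9% at day 4. In the lowest band, from rank 40000 down, 14.4% of 2383 day 8-only regions were open at day 12 and 8.64% at day 0, and 27.2% of 3364 4-days-off-only regions were open at 8 days off. All 31 isolated day 8-only regions of the first 10000 ranks were open at day 12 and in CD11b-high cells. Only 6 isolated 4-days-off-only regions ranked so high, and all 6 were open at 8 days off.

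**Figure D2:**
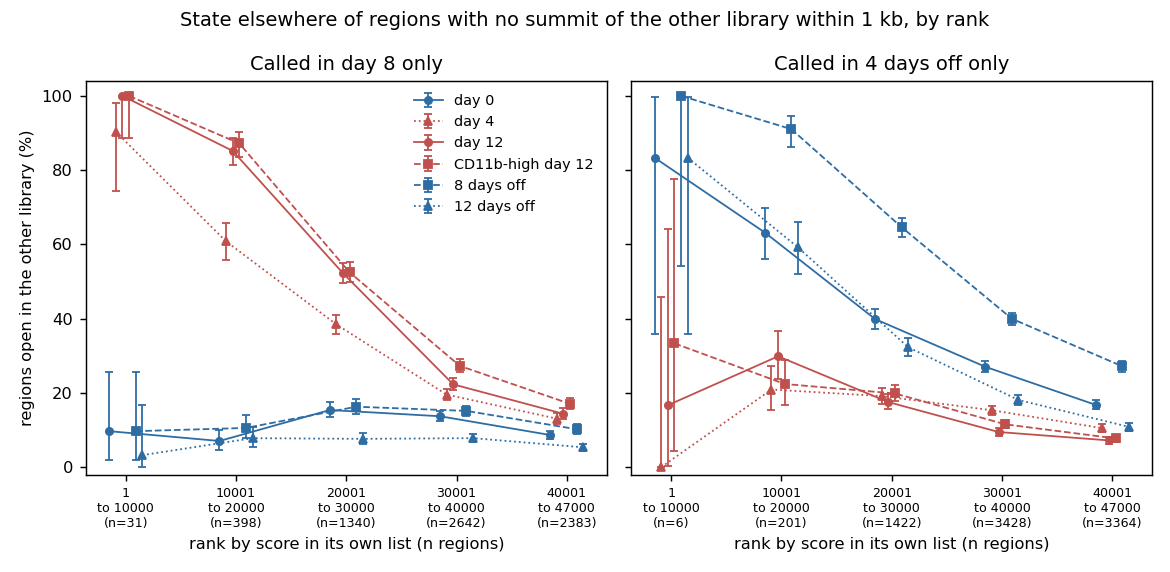
Points give the percent of isolated library-only regions that held a summit of each other library, by rank of the score in the region's own list, with exact 95% intervals. In the second band day 8-only regions were open in 85.2% at day 12 and 7.04% at day 0, and 4-days-off-only regions in 91.0% at 8 days off. The first band of the 4-days-off panel holds 6 regions.

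A strict pattern gave the same sides. A region open at day 4, at day 12 and in CD11b-high cells, and not at day 0, 8 or 12 days off, followed the drug, and 1278 regions (2.24% of 56960) did so. Of these, 610 were open at day 8 only, 24 at 4 days off only and 644 in both. Day 8 thus held 98.1% of them and 4 days off 52.3% (49.5 to 55.04). The reverse pattern, open at day 0, 8 and 12 days off and not at day 4, day 12 or in CD11b-high cells, was met by 1004 regions (1.76%). Of these, 439 were open at 4 days off only, 70 at day 8 only and 495 in both, so that 4 days off held 93.0% and day 8 held 56.3% (53.1 to 59.4). With all summits 4 days off held 59.1% of the first pattern and 95.04% of the second. Regions with a pattern but no summit at day 8 or 4 days off could not enter these counts.

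The strongest isolated day 8-only region lay at chr5:98033093-98033393, 2226 bp outside Antxr2, which encodes an anthrax toxin receptor of the cell surface. It scored 29.4 at day 4, 39.6 at day 8, 31.7 at day 12 and 38.9 in CD11b-high cells, and was not called at day 0 or at any time off Dox. The next, at chr15:5446407-5446707 and chr4:7245696-7245996, had no protein-coding gene within 100 kb. They scored 16.2 and 18.4 at day 4, 36.5 and 36.2 at day 8, 31.1 and 23.4 at day 12, and 27.5 and 30.3 in CD11b-high cells, and were not called elsewhere. All 3 were thus open in each library on Dox and in none of the others.

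Bcl2, the anti-apoptotic founder of its family, held a day 8-only region inside the gene at chr1:106627375-106627675 that scored 23.2 at day 4, 36.1 at day 8, 19.5 at day 12 and 21.1 in CD11b-high cells, with a weak call of 3.41 at 8 days off. A weak 4-days-off summit of score 4.82 lay 1388 bp away. A further region inside the gene, at chr1:106581837-106582137, scored 9.13 at day 4, 24.95 at day 8, 6.26 at day 12 and 7.04 in CD11b-high cells and had no call without the drug. In all, Bcl2 held 3 isolated day 8-only and 1 isolated 4-days-off-only region among 13. Sh2d1b1, an adaptor of SLAM-family immune receptors, held a region of like pattern (17.9, 34.0, 15.8 and 20.6 in the libraries on Dox). The region 6235 bp from Ndc80, a kinetochore gene, was not called at day 4 and scored 33.0 at day 8, 10.2 at day 12 and 20.1 in CD11b-high cells.

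On the other side, the highest score was inside Leo1, a subunit of the PAF1 elongation complex, at chr9:75449810-75450110. It scored 8.16 at day 0, 39.9 at 4 days off, 13.6 at 8 days off and 6.93 at 12 days off, with no call in any library on Dox. The region inside the sorting nexin gene Snx30 (chr4:59819475-59819775) scored 14.7, 34.0, 30.0 and 16.2 in the same order. The region 9473 bp outside Sema7a, a membrane-anchored semaphorin (chr9:57972188-57972488), scored 5.42, 33.1, 24.0 and 13.2. These 3 regions were open in each library without Dox and in none with it. Regions in Rcsd1, in Pstpip2 and near St18 were the next. That near St18 scored 20.3 at day 0 and 32.1 at 4 days off, and was also called at day 12 (6.71) and in CD11b-high cells (5.27). The region in Rcsd1 was not called at day 0 and had a weak call of 2.91 in CD11b-high cells.

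**Figure D3:**
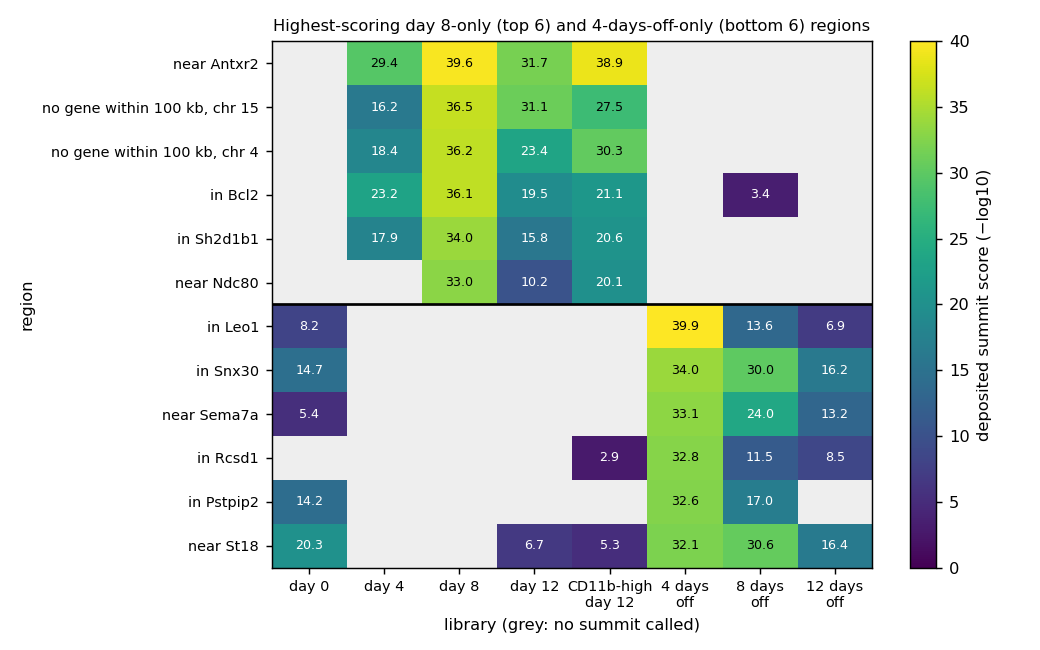
Cells give the deposited −log10 score of the 6 isolated day 8-only regions (above the line) and the 6 isolated 4-days-off-only regions (below) with the highest scores, in all 8 libraries, and grey cells had no summit. Scores depend on depth, so their presence and order within a column can be read but their size cannot be compared between columns. The regions were chosen by the day 8 and 4-days-off columns, while the other 6 columns took no part.

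The strongest shared regions did not follow the drug. The one 29502 bp from Rpusd4 scored between 234.8 and 263.7 in the 8 libraries, and that inside Chl1, a neural cell adhesion gene, between 181 and 208. The 4 shared regions with the highest scores were open in all 8. Such scores lay far above the shared medians of 14.9 at day 8 and 18.3 at 4 days off. No filter for regions of excess signal was applied here, so whether these scores reflect open chromatin was not tested.

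At Spi1 itself the 2 libraries shared 5 of 6 regions. The strongest pair, both inside the gene and open in all 8 libraries, scored 39.8 and 34.1 at day 8 and 45.3 and 49.5 at 4 days off. One region, at chr2:91101434-91101734, was called at 4 days off alone with a score of 5.19. Accessibility of the locus does not measure PU.1, so it is no check of the labels. Of 4 regions at Itgam, the CD11b gene, 3 were shared and none was an isolated library-only one. The macrophage receptor gene Csf1r had 1 region, called at 4 days off with 4.49 and at 12 days off with 4.38. No region assigned to it was called at day 8.

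Taking the closest protein-coding gene up to 100 kb away placed 53823 regions at 15598 genes. Isolated day 8-only regions made up 11.5% of these and isolated 4-days-off-only regions 14.5%. More isolated day 8-only regions were found at 2914 genes (18.7%) and more 4-days-off-only ones at 3898 (25%). Lists of genes are read against these shares. The median gene had a difference of 0 over all genes and in every list but the stem and progenitor list, where it was -1.

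Monocyte and macrophage genes leaned to day 8. The 22 list genes with a region held 12 isolated day 8-only regions (17.4%) and 4 isolated 4-days-off-only ones (5.80%) among 69. Of these genes 9 leaned to day 8, 2 leaned to 4 days off and 11 had no difference. The macrophage receptor gene Csf1r, described above, went the other way with 0 and 1. Ccr2, the receptor that brings monocytes out of the marrow, had a region 33329 bp outside the gene that scored 21.2 at day 8, 2.86 at day 4 and was not called elsewhere. The C-type lectin receptor Clec4d had 2, of which the one inside the gene scored 9.10 at day 4, 8.96 at day 8, 8.14 at day 12 and 8.35 in CD11b-high cells. The other Clec4d region, 386 bp outside the gene, scored 10.4 at 12 days off and was missing at day 12. On Dox it scored 7.71 at day 4, 8.78 at day 8 and 6.94 in the CD11b-high sort. The Fc receptor gene Fcgr3 and the fractalkine receptor gene Cx3cr1 had 1 each. That of Fcgr3 scored 7.10 at day 8 and 7.22 at 8 days off, with no other call. That of Cx3cr1 scored 5.81 at day 4, 5.37 at day 8 and 4.55 in the CD11b-high sort, with no other call. With all summits the list held 12 (16.2%) and 9 (12.2%), against 11.0% and 17.6% of all assigned regions. With only summits of at least 10 it held 4 (9.76%) and 1 (2.44%) among 41, against 3.12% and 4.57% of all assigned regions. This lean was not particular to the list, since genes of non-blood tissues held 4 (12.1%) and 0 among 33 at that limit. Of the 12 isolated day 8-only regions 4 were open at day 12 and 1 at day 0. Over all genes 28.9% and 12.1% of such regions were.

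Inflammatory and cytokine genes leaned the same way, with 19 day 8-only (15.6%) and 9 4-days-off-only regions (7.38%) among 122. Tlr2, the receptor for bacterial lipoproteins, had 2 day 8-only regions of 7.95 and 3.40, called in no other library. Tlr4, the receptor for bacterial lipopolysaccharide, had 3 day 8-only regions of low score (5.37 to 6.38). Nfkb1, the p50 subunit of NF-κB, and its inhibitor Nfkbia went against the list, with 1 and 0 day 8-only and 4 and 2 4-days-off-only regions. With all summits the list held 19 (15.0%) and 14 (11.0%). Eosinophil genes had 2 and 1 among 19. Siglecf, the eosinophil lectin, had a region 7951 bp outside the gene that scored 5.40 at day 4, 12.6 at day 8, 8.28 at day 12 and 7.48 in CD11b-high cells. Ear1, an eosinophil ribonuclease, had the opposite: 5.46 at day 0, 14.0 at 4 days off, 10.2 at 8 days off and 7.92 at 12 days off. Both followed the strict patterns above.

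Integrin and migration genes held 26 day 8-only (13.7%) and 19 4-days-off-only regions (10%) among 190, but 26 (12.7%) and 33 (16.1%) with all summits. Members went in both directions. The hyaluronan receptor Cd44 had 4 and 0, and the chemokine receptor Cxcr4 had 3 and 0, while the integrin subunit Itga4 had 0 and 5. The strongest of the Cd44 regions, of 9.62 at day 8, was called in every library except 4 days off, with 14.2 at day 0. Dendritic cell genes held 12 and 8 among 77, and 12 and 11 with all summits. Tcf4, a factor of plasmacytoid dendritic cells, had 4 and 0, while the chemokine receptor Ccr7 had 1 and 3 and the cytokine receptor Flt3 and the factor Batf3 had 0 and 1 each. Megakaryocyte and platelet genes held 13 and 9 among 62, and 13 and 12 with all summits. With only summits of at least 10 they held 0 and 2 (6.45%) among 31, against 3.12% and 4.57% of all assigned regions. Mef2c and Vwf had 2 and 0 each, and Zfpm1, the GATA cofactor FOG, had 3 and 4. Mast cell and basophil genes held 12 of each among 53. The IL-33 receptor gene Il1rl1 had 4 day 8-only regions, all of low score (4.39 to 5.37), while the protease gene Prss34 had 0 and 2, Cd200r3 1 and 2, and Kit 2 and 3.

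AP-1 and immediate early genes leaned to 4 days off, with 4 day 8-only (3.70%) and 18 4-days-off-only regions (16.7%) among 108. Jun, a core AP-1 subunit, had 0 and 4. The strongest of its regions, inside the gene, scored 9.97 at 4 days off, 12.2 at 8 days off and 7.51 at 12 days off. The repressors Bach1 and Bach2, which bind AP-1-like sites, had 1 and 4, and 0 and 3. The FOS-family gene Fosb had 0 and 2. Against all assigned regions, the list stood low on the day 8 side rather than high on the other. Of its 18 4-days-off-only regions 11 were open at 8 days off, 6 at day 0 and 1 at day 12, while over all genes 40.1%, 26.0% and 10.2% of such regions were. With only summits of at least 10 the list held 0 and 3 (3.85%) among 78, against 3.12% and 4.57% of all assigned regions.

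Stem and progenitor genes held 20 day 8-only (10.5%) and 35 4-days-off-only regions (18.3%) among 191, with 3 genes leaning to day 8 and 14 to 4 days off. Ikzf1, the lymphoid factor Ikaros, had 1 and 4, of which the region inside the gene at chr11:11719808-11720108 scored 3.65 at day 0, 13.7 at 4 days off, 12.5 at 8 days off and 3.30 at 12 days off. Its relative Ikzf2 had 1 and 4. Erg had 1 and 3, while Etv6 went against the list with 2 and 0. Of the 35, 19 were open at 8 days off, 10 at day 0 and 3 at day 12, against 40.1%, 26.0% and 10.2% over all genes. Of the 20 day 8-only regions 6 were open at day 12 and 0 at day 0. Over all genes 28.9% of isolated day 8-only regions were open at day 12 and 12.1% at day 0.

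Neutrophil and granulocyte genes held 5 day 8-only and 10 4-days-off-only regions among 54. The G-CSF receptor gene Csf3r had 0 and 2. Its stronger region, 33083 bp outside the gene, scored 10.3 at day 0, 5.88 at day 4, 9.39 at 4 days off, 16.4 at 8 days off and 7.02 at 12 days off. It was called in CD11b-high cells as well (5.27), so it did not follow the strict pattern. Retnlg, a neutrophil resistin-like gene, had 2 and 0. Erythroid genes held 1 and 3 among 20, with 0 and 2 at Nfe2, 0 and 1 at the spectrin gene Sptb and 1 and 0 at Tal1. The T and NK cell list held 8 and 14 among 82, with 0 and 3 at Bcl11b and 3 and 1 at Themis, a regulator of thymocyte selection. The strongest day 8-only region in Themis scored 11.2 at day 4, 22.4 at day 8, 22.5 at day 12 and 18.7 in CD11b-high cells, with no call without the drug. The B cell list held 6 of each among 24.

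PU.1 partners and targets held 17 day 8-only (10.6%) and 25 4-days-off-only regions (15.5%) among 161, close to the shares over all genes. Members went in both directions. Cebpb, a C/EBP factor of macrophages and granulocytes, had 2 and 0. The stronger, of 11.4 at day 8, also scored 14.2 at day 0 and 3.73 at 8 days off, and the other was called at day 8 alone. Klf4, a KLF-family factor that takes part in monocyte formation, had 0 and 3. Its region 305 bp from the gene, at chr4:55532630-55532930, scored 18.0 at day 0, 21.3 at 4 days off and 30.5 at 8 days off and had no call in any library on Dox or at 12 days off.

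The other lists were nearer to balance or low on both sides, but for genes of non-blood tissues, which stood above the shares over all genes on both sides. Cell cycle and growth genes held 8 and 15 among 115, with 0 and 3 at Ccnd1, which encodes cyclin D1. Survival genes held 6 and 8 among 86. Besides Bcl2, the death agonist gene Bid had a 4-days-off-only region that scored 20.1 at day 0, 16.8 at 4 days off, 26.2 at 8 days off and 9.50 at 12 days off, with none on Dox. Cytokine and growth factor receptors held 12 and 11 among 108, lysosome and NADPH oxidase genes 10 and 11 among 98, and interferon response genes 4 and 6 among 50. Housekeeping genes held 2 and 6 among 58. Genes of non-blood tissues, which served as a negative list, held 11 and 9 among 57. Their 19.3% on the day 8 side was above that of the macrophage list, and their 15.8% on the other side was above the 14.5% over all genes. With only summits of at least 10 they held 4 (12.1%) and 0 among 33.

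**Figure D4:**
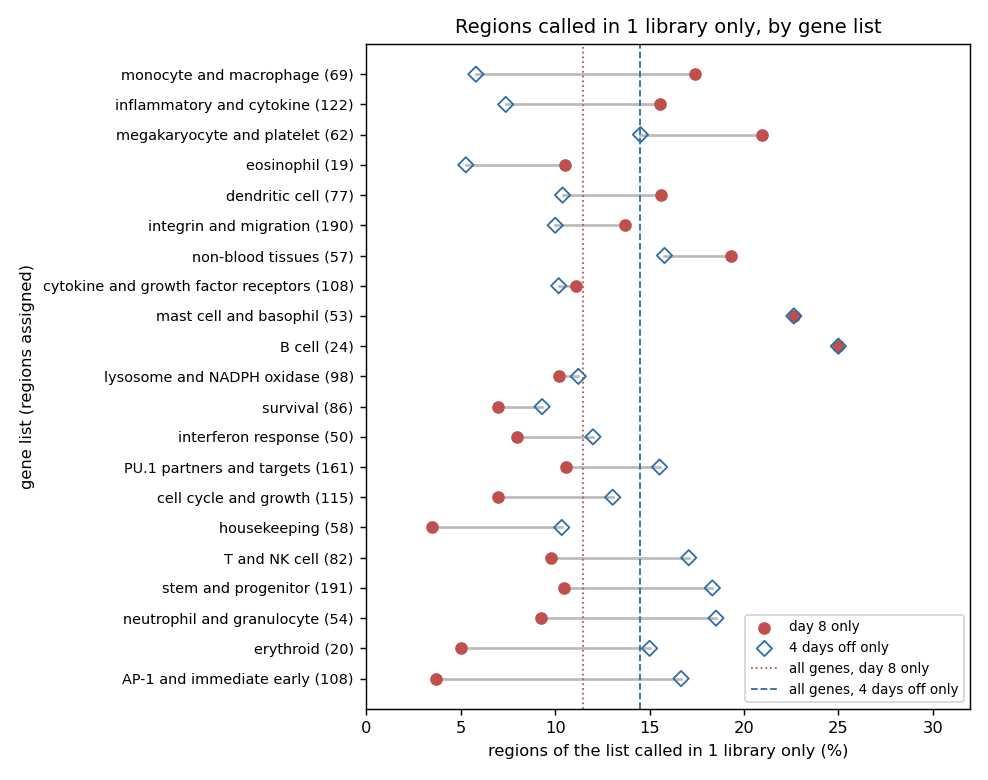
Each line is a gene list with its number of regions. Filled circles give the percent that were isolated day 8-only and open diamonds the percent that were isolated 4-days-off-only, and vertical lines give the same over all 53823 assigned regions (11.5% and 14.5%). The monocyte and macrophage list stands at 17.4% and 5.80%, and the AP-1 list at 3.70% and 16.7%.

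Single genes with the widest gap on the day 8 side lay outside these lists. Fbxl17, an F-box gene, had 7 isolated day 8-only and 2 isolated 4-days-off-only regions among 19. Its strongest, at chr17:63189380-63189680, scored 5.08 at day 4, 25.1 at day 8, 6.82 at day 12 and 6.36 in CD11b-high cells. Syne1, which encodes a nuclear envelope spectrin, had 8 and 3 among 26. Sipa1l3 had 6 and 1, and Gadl1, the calcium pump gene Atp2b1, the microtubule-binding Clasp2, Txndc16, the kinase Cdk14 and the phosphatase Inpp4b had 5 and 0 each. Gm11780 and the cGMP-dependent kinase gene Prkg1 had 4 and 0. Sfi1 had 6 and 1, all 6 with scores under 5.70, and its difference was -1 when only summits of at least 10 were used.

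On the other side Aff3, an AF4-family nuclear factor, had 2 day 8-only and 9 4-days-off-only regions among 19. The strongest, at chr1:38237941-38238241, scored 3.86 at day 0, 25.4 at 4 days off and 8.06 at 8 days off. Camta1, a calmodulin-binding transcription activator, had 2 and 9 among 23, and the palmitoyltransferase gene Zdhhc14 had 0 and 7. The Mediator subunit gene Med13l and the phosphodiesterase gene Pde10a had 1 and 7 each, as had Jade1 and Plekha7. The nuclear factor gene Nfib had 0 and 6, as had Ggta1, the monoglyceride lipase gene Mgll, Lclat1 and Faim2. When only summits of at least 10 were used, 57 of the 102 named genes with a difference had one of 0. At that limit only 10 of the 102 kept a like difference, 89 moved and 3 turned, so most of these differences did not hold. With all summits 89 kept a like difference, 12 moved and 1 turned.

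Library-only regions lay away from genes' ends. Of day 8-only regions 13.9% (13.2 to 14.6) and of 4-days-off-only regions 14.1% (13.4 to 14.7) had their midpoint within 1 kb of an end of a protein-coding gene, against 28.4% (27.9 to 28.9) of shared regions. Another 45.9%, 47.2% and 38.7% lay inside genes farther from the ends. Among isolated regions the classes parted, with 4.50% (4.02 to 5.02) for day 8 and 7.85% (7.28 to 8.44) for 4 days off. Summits within 1 kb of an annotated start gave 3.73% and 6.88%. Chromosome 18 is left out of all values for starts and promoter windows, because no start on it was available. The strict patterns also differed: 5.82% (4.07 to 8.04) of the 584 day 8-only regions that followed the drug and could be placed lay near a start, against 15.2% (11.9 to 18.9) of 429 4-days-off-only regions with the reverse pattern. By chromosome, day 8-only regions ranged from 16.1% of regions on chromosome 4 to 22.5% on X, and 4-days-off-only regions from 15.9% on chromosome 19 to 23.4% on chromosome 14.

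The promoters of the 2 classes differed in the PU.1 letters. An isolated day 8-only summit lay in 106 promoter windows, and GAGGAAGT, on either strand, was in 14 of them (13.2%, 7.41 to 21.2). With neighbours of the other library allowed it was in 27 of 464 (5.82%). An isolated 4-days-off-only summit lay in 257 windows, of which 3 held the letters (1.17%, 0.241 to 3.37), or 8 of 452 (1.77%) with neighbours allowed. Of 8189 windows with a shared summit 3.54% held them, and of all 32851 windows 3.20%. The windows also differed in base composition, with a median GC content of 49.7% for day 8, 60% for 4 days off and 62.3% for shared. Counted over regions in windows under 55% GC, the letters were in 12 of 72 day 8-only regions (16.7%, 8.92 to 27.3). They were in 1 of 87 4-days-off-only regions (1.15%, 0.0291 to 6.23). Of all windows of such GC 3.66% held them, and of those with a shared summit 5.32% (4.27 to 6.54). A match of letters is no proof of binding.

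The 14 windows were those of Pirb, Lilra6, Gm15448, Tlr9, Bcl2a1d and its copy Bcl2a1a, Cd5, Adgre4, a relative of the macrophage antigen F4/80, Cd300ld, a myeloid immunoglobulin-like receptor, Gstp3, and 4 less known genes (Gm46838, 9330182O14Rik, Gm39082 and Gm41974). The stretches printed for Gm15448 and Lilra6 were identical to that of Pirb in 80 and 78 of 80 bases, so reads of these genes may be shared and the windows are not independent. The windows of Bcl2a1d and Bcl2a1a were identical in 199 of 300 bases without gaps. With Lilra6, Gm15448 and Bcl2a1a left out the letters were in 11 of 103 windows (10.7%, 5.45 to 18.3). Pirb scored 10.3 at day 4, 14.4 at day 8, 11.7 at day 12 and 14.9 in CD11b-high cells. Lilra6 scored 17.0, 11.6 and 11.7 and Gm15448 15.6, 6.82 and 9.84 in the last 3 of these. Tlr9 scored 9.90, 11.8, 11.1 and 6.55 in the libraries on Dox. Bcl2a1d scored 8.51 at day 8, 11.7 at day 12 and 8.64 in CD11b-high cells. None of these 5 was called in any library without Dox. The 3 windows with the letters on the other side were those of Abcg3, Ccdc184 and the purinergic receptor-like gene P2ry10, with scores of 5.55 to 6.40.

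Other day 8-only promoters lacked the letters. That of the chemokine receptor gene Ccr1 scored 17.5 at day 4, 19.3 at day 8, 15.2 at day 12, 9.24 in CD11b-high cells, 5.25 at 8 days off and 2.48 at 12 days off, so it was missing at day 0 and at 4 days off. That of Ncf1, the p47 subunit of the phagocyte NADPH oxidase, scored 17.1 at day 8 and 7.02 at day 12 and was not called elsewhere. The promoter of Il7r, the IL-7 receptor, scored 12.4 at day 8, 6.91 at day 12 and 7.09 in CD11b-high cells.

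The SP and KLF letters CCGCCC ran the other way. They were in 24.5% (16.7 to 33.8) of day 8-only, 48.2% (42.0 to 54.5) of 4-days-off-only and 70.2% of shared windows, against 35.7% of all. This order is also that of the GC content. Phldb2 scored 3.05 at day 0, 19.0 at 4 days off, 10.2 at 8 days off and 12.2 at 12 days off, and Rcor2 scored 19.5, 19.0, 15.5 and 13.1. Neither was called on Dox. Psmb10, an immunoproteasome subunit, had a promoter summit of 16.3 at 4 days off and 7.46 at 8 days off and none elsewhere. Of the other 8 sets of letters searched, AP-1 (TGANTCA) was in 12.3% (6.69 to 20.1) of day 8-only and 5.06% (2.72 to 8.49) of 4-days-off-only windows, with overlapping intervals, against 7.81% of all. The GATA letters AGATAA were in 9.43% and 6.23%. For RUNX, TGTGGT was in 20.8% and 19.5%.

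**Figure D5:**
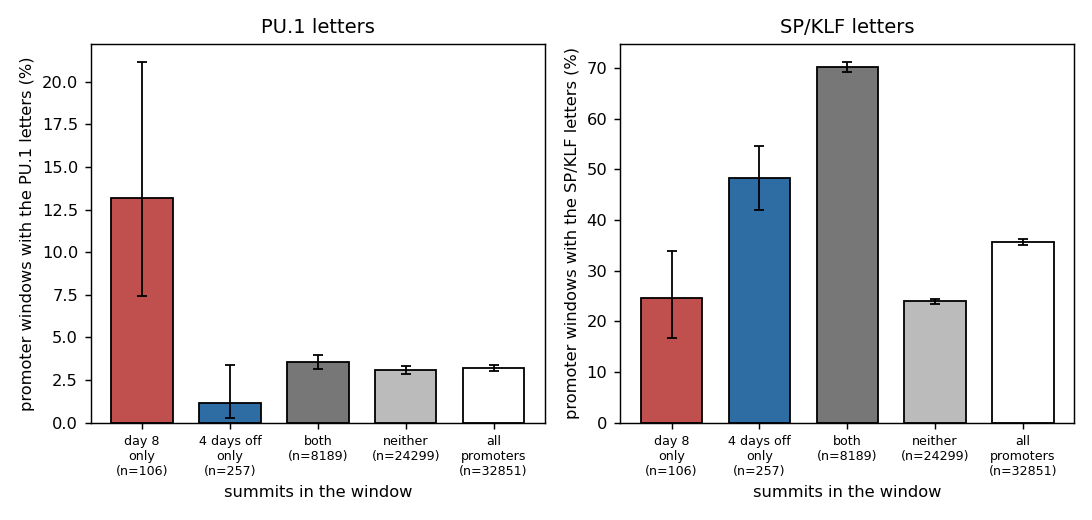
Bars give the percent of promoter windows that held the PU.1 letters (first panel) or the SP and KLF letters (second panel), by the summits in the window, with exact 95% intervals. The PU.1 letters were in 13.2% of 106 day 8-only windows and 1.17% of 257 4-days-off-only windows, and the SP and KLF letters in 24.5% and 48.2%.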

How the data were processed

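Open chromatin was measured by ATAC-seq, from 50000 cells per library, in 8 libraries of 1 line, 1 per group. The labels' protocol also names ChIP, while the title, the design text and the library preparation name ATAC-seq. The submitters' processing notes name Picard 2.14.0, MACS2 and build mm10, and the peak names record removal of mitochondrial reads, duplicate handling and a shift. The aligner and the depth were not given in the sources used here. For each summit the deposited score was read as a −log10 p-value or q-value because the lists start near a threshold of 0.05 (smallest scores 1.30 to 1.39).

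Summits were extended, merged and classed as described above, with Python 3.11.15, pandas 2.3.3 and SciPy 1.17.1. No test between libraries was run. Genes came from a RefSeq table of GRCm38.p6, which is mm10. It gives no strand, so both gene ends were used in place of the planned start. Of 386 genes in 21 lists, 382 matched. Genes named were the 12 at each end of the day 8-only minus 4-days-off-only difference, up to 4 members per list, and 4 fixed ones (Spi1, Kit, Itgam, Csf1r). Regions named were the 6 highest isolated ones of each class, the 5 highest of each strict pattern and the 4 highest shared. Promoters, and the members and values singled out of lists, were chosen after their values were seen. The comparison and the lists were chosen with earlier results of these data known. Class recovery was tried on simulated lists of summits far from any other, with shifts smaller than the merging distance. Its outcome was thus fixed in advance, and it does not cover summits with close neighbours. Alternatives were another list length, score limit, extension, neighbour rule and gene distance.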

Additional observations from a re-analysis of the deposited data

Results flagged for a closer look

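The day 8 list held 95 summits on unplaced or random contigs and the 4-days-off list 115. They lie outside the chromosomes that were compared and took no part in any class, and no control library without chromatin was there to set them against. The contig with the most had 28 at day 8 and 33 at 4 days off.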

How the results depend on the processing

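The share of shared regions, 63.3%, was 62.2% with all summits, 64.0% with 31000 summits of each list, 59.5% with 100 bp extension, 66.6% with 250 bp and 70.3% without library-only regions near a summit of the other library. With summits of at least 10 it stood at 63.1%.

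The 4-days-off-only share minus the day 8-only share, in percentage points, kept its sign in every alternative listed here. Rank bands were not among these, and at day 0 the order turned in the highest band over all library-only regions. For day 0 it was 10.3, and 7.94 with all summits, 21.9 at a score of at least 10, 13.1 with 31000 summits, 8.63 with 100 bp, 13.3 with 250 bp, 14.1 without neighbours and 11.8 when a summit had to lie within 300 bp. For day 12 it was -19.3, and -20.7, -24.6, -22.3, -15.7 and -20.8 under the first 5 of these. For 12 days off it was 7.57, and 5.42, 20.4, 17.5, 6.17, 10.2 and 11.7 under the first 6. The share of library-only regions near a gene end, 14.0%, was 15.6% at a score of at least 10, 14.9% with 31000 summits, 16.6% with 100 bp, 9.73% with 250 bp and 6.36% without neighbours.

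Among the named genes, the difference turned for Fli1 (-1) with all summits, and for Asap1 (-2), Ddx58 (-1) and Sfi1 (-1) at a score of at least 10. Across these settings the day 8-only regions that followed the drug numbered 465 to 737 and the 4-days-off-only ones 13 to 48. In alternatives chosen after seeing the data, the PU.1 letters were in 13.2% of day 8-only and 2.08% of 4-days-off-only promoter windows with all summits, in 5 of 21 and 0 of 56 at a score of at least 10, and in 5.82% and 1.77% with neighbours allowed. The shorter GAGGAA was in 50% and 28.0%. The cause of these shifts was not tested. Planned searches for letters of IRF, CTCF and NRF1 sites and for letters at summits were not run. No paired analysis was possible because each group has 1 library and the labels give no replicate numbers. Depth, which is not given, limits every absence of a call.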
